A study of Mus musculus with 12 samples.

Results

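Innate sensing adaptors and kinases are the genes whose products carry a signal from receptors for microbial or misplaced nucleic acid and for bacterial cell wall to the transcription factors that switch on type I interferons and inflammatory cytokines. They were followed here as 8 genes chosen by symbol, Mavs, Irf3, Nod1, Trim25, Tmem173, Tbk1, Ikbke and Myd88, of the 35855 genes with transcripts in the deposited data. All 8 were found, and all 8 passed the filter on low counts in every comparison. Irf3, Mavs, Nod1 and Trim25 were named in the paper from these same libraries, so their direction at day 7 is not independent evidence.

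The 12 RNA-seq libraries came from CD8 T cells of mouse spleen, labelled C57BL/6, in 4 groups of 3. WT and TCF-1 cKO (labelled TCF-7 cKO, TCF-1 flox/flox x CD4cre, in which Cre driven by the Cd4 gene deletes the transcription factor TCF-1 in T cells that pass through the CD4+CD8+ stage of the thymus) were each taken pre-transplant and at day 7 post-transplant. The pre-transplant cells were FACS-sorted from donor spleens, and the post-transplant cells were sorted as donor CD8 T cells from the spleens of lethally irradiated BALB/c recipients given WT bone marrow depleted of T cells together with CD3 T cells of either genotype, a mismatched transplant that alloactivates the donor cells. Library totals were 4520270 to 9577076 estimated counts for TCF-1 cKO pre-transplant and 18184814 to 32657005 for the other groups, and a level of 3 counts, the smallest a library was taken to show, corresponds to 0.0922 to 0.667 CPM (counts per 1000000 of the library).

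In the RNA branch of innate sensing, the RNA helicases RIG-I and MDA5 bind viral RNA, the ubiquitin ligase TRIM25 helps to activate RIG-I, and the mitochondrial adaptor MAVS relays the signal. In the DNA branch, a cyclic dinucleotide made by cGAS binds STING, the product of Tmem173. Both adaptors recruit the kinases TBK1 and IKKε (Ikbke), which phosphorylate IRF3, while NOD1 senses bacterial peptidoglycan and MYD88 serves most Toll-like receptors, and in T cells several of these proteins also modulate activation, survival and cytokine production.

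Before the members are described, some libraries stand apart from their labels. Tcf7, which encodes TCF-1, was at 76.0 to 166 CPM in WT and at 26.2, 34.1 and 62.7 CPM in TCF-1 cKO replicates 1 to 3 pre-transplant, so the TCF-1 cKO libraries of that stage still held Tcf7 counts. After transplant it was at 26.4 to 26.9 CPM in WT post-transplant replicates 1 and 2 and at 10.7 CPM in the library labelled WT replicate 3, below all 3 TCF-1 cKO post-transplant libraries (13.6 to 14.6 CPM). CD4 T cells are written in 1 label of replicate 2 of the day 7 TCF-1 cKO group, yet Cd4 was at no more than 7.00 CPM, and Cd8a at no less than 477 CPM, in any post-transplant library. Pre-transplant, Cd8a was at 87.1 to 154 CPM in WT and 26.4 to 30.8 CPM in TCF-1 cKO, and Cd4 at 85.6 to 110 and 22.8 to 48.6 CPM. Beside them stood a summed level of 10 B cell markers of 13594 to 19545 CPM in WT and 5632 to 13733 CPM in TCF-1 cKO. After transplant that sum was 506 to 1138 CPM, and no list of B, myeloid, NK, plasmacytoid dendritic or erythroid markers had a gene at 0 in all 3 libraries of a group. At day 7 the B cell sum was 705 to 1138 CPM in WT and 506 to 800 CPM in TCF-1 cKO. The sum of 12 myeloid markers was 722 to 1356 and 640 to 931 CPM, both sums with overlap. Since several members are well expressed in B and myeloid cells, these values stand beside every comparison, and their part in the day 7 differences was not tested. In bulk RNA, fewer cells of a type and less RNA per cell cannot be told apart.

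One sequence carries a result on Tbk1 and is given first. Of the 7 transcripts that GENCODE annotates for Tbk1, the results turn on the protein-coding one of 21 exons (the coding transcript) and on a processed transcript of 406 bases with no coding sequence (the repeat transcript). Exon 1 of the repeat transcript is exon 8 of the coding transcript (173 bases), and its exon 2 (GRCm38, chr10:121562172-121562404, minus strand, 233 bases) lies wholly in the intron that follows. Its repeat is why it is shown. Capitals mark the 144 bases covered by 31-base words that also occur in transcripts of other genes.
Tbk1 repeat transcript, exon 2: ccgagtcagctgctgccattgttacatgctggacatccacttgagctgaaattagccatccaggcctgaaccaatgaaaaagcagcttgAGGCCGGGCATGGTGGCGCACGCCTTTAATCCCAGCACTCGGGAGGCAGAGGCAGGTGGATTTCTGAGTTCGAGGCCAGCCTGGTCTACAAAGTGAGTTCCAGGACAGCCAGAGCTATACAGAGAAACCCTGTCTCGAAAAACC
Of the 376 words of 31 bases in the repeat transcript, 114 (30.3%) were shared with 2111 transcripts of 1741 other genes, and the capitals have the form of a B1 repeat, a short interspersed element common in mouse introns and UTRs. Reads from the repeat could not be assigned to Tbk1 with certainty. Among the other transcripts of the members only a coding Myd88 transcript of 379 bases shared a larger part of its words (62.5%, with 1 gene).

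**Figure D1:**
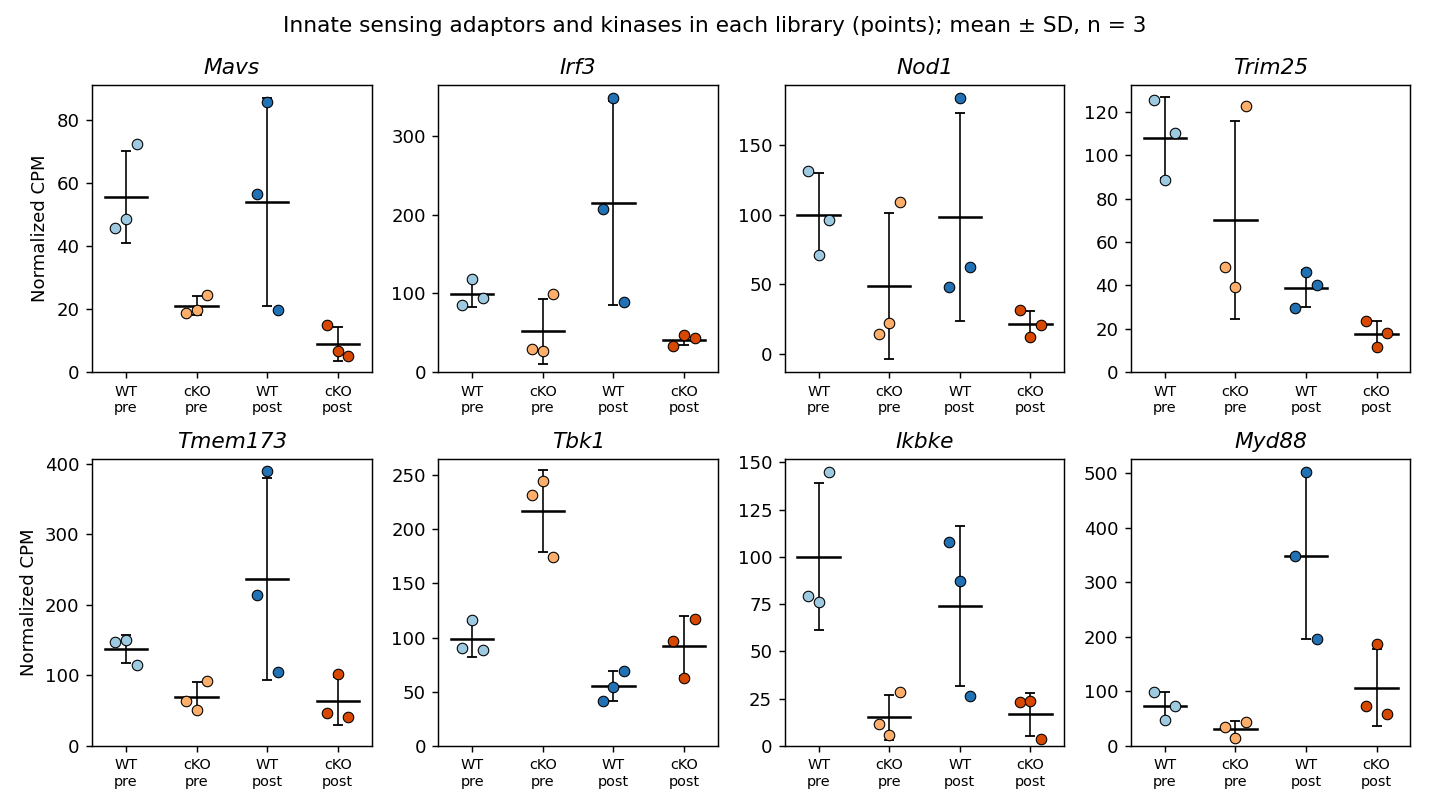
Normalized CPM (y axis, linear) of each member in the 12 libraries by group (x axis), with points for libraries and bars for the mean ± SD of 3 libraries. At day 7 every WT point of Mavs, Irf3, Nod1, Trim25, Tmem173, Ikbke and Myd88 lies above every TCF-1 cKO point, and Tbk1 is highest in TCF-1 cKO pre-transplant.

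The first comparison asked how the members differed between TCF-1 cKO and WT cells 7 days after transplant. Of the 8 members, 6 passed an FDR of 0.1 and all 6 were lower in TCF-1 cKO: Mavs, Irf3, Nod1, Trim25, Tmem173 and Myd88. Over the 16026 genes tested, 17.9% passed, 15.4% as lower and 2.51% as higher. The groups did not overlap for 7 members, all lower, where 17.3% of all genes were lower and 23.4% higher without overlap (40.7% in all). An unadjusted p below 0.05 was found for 7 members and for 28.1% of all genes. The median log2 fold change of the 8 members was -2.31, against 0.15 over all genes. The test was the quasi-likelihood test of edgeR, with p-values adjusted by Benjamini-Hochberg over all genes tested, log2 fold changes are TCF-1 cKO against WT and are given with their standard error (SE), and levels are TMM-normalized CPM.

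Mavs (ENSMUSG00000037523, GRCm38 chr2:131234063-131248025, plus strand) encodes the mitochondrial adaptor of the RNA branch. At day 7 its level was 56.4, 85.6 and 19.7 CPM in WT replicates 1 to 3, and 14.95, 6.59 and 4.94 CPM in TCF-1 cKO replicates 1 to 3. All WT libraries were above all TCF-1 cKO libraries, though WT replicate 3 was close to TCF-1 cKO replicate 1. The log2 fold change was -2.95 (SE 0.73, adjusted p = 0.0459), a 7.73-fold lower level.

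Trim25 (ENSMUSG00000000275, chr11:88999376-89020293, plus strand), the ligase upstream of MAVS, was at 29.5, 46.3 and 40.2 CPM in WT and at 23.6, 11.5 and 17.9 CPM in TCF-1 cKO. The groups did not overlap, with a narrow gap between the lowest WT and the highest TCF-1 cKO library. Its log2 fold change of -1.39 (SE 0.45, adjusted p = 0.0888) was the smallest of the 6 that passed.

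Tmem173 (ENSMUSG00000024349, chr18:35733679-35740554, minus strand), which encodes STING, was at 214, 389 and 105 CPM in WT and 47.1, 102 and 40.2 CPM in TCF-1 cKO. WT replicate 3 and TCF-1 cKO replicate 2 all but met. The log2 fold change was -2.16 (SE 0.68, adjusted p = 0.0807).

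Nod1 (ENSMUSG00000038058, chr6:54923949-54972612, minus strand) encodes a cytosolic receptor for peptidoglycan fragments. Its level was 48.3, 184 and 62.5 CPM in WT and 31.3, 12.4 and 20.6 CPM in TCF-1 cKO. WT replicate 2 was well above the other two WT libraries, and the groups did not overlap. The log2 fold change was -2.49 (SE 0.65, adjusted p = 0.0514).

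Myd88 (ENSMUSG00000032508, chr9:119335934-119341411, minus strand) encodes the adaptor of most Toll-like receptors and of the IL-1 and IL-18 receptors. WT libraries held 348, 502 and 195 CPM and TCF-1 cKO libraries 73.7, 187 and 58.0 CPM. WT replicate 3 and TCF-1 cKO replicate 2 were near each other, without overlap. The log2 fold change was -1.95 (SE 0.66, adjusted p = 0.0964). Exons of Myd88 and of Acaa1a on the opposite strand share 290 bases, 11.3% of the exonic bases of Myd88, and the library kit does not mark strand, so reads from both genes there cannot be told apart.

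Neither kinase passed. Ikbke (ENSMUSG00000042349, chr1:131254343-131279606, minus strand), which encodes IKKε, was at 108, 87.4 and 26.5 CPM in WT and 23.0, 23.7 and 3.58 CPM in TCF-1 cKO, also without overlap. Its log2 fold change was -2.46 (SE 0.86) with an adjusted p of 0.107, which misses the threshold. Tbk1 (ENSMUSG00000020115, chr10:121546455-121586787, minus strand), its close relative, was at 41.4, 54.5 and 69.5 CPM in WT and 96.4, 62.2 and 117 CPM in TCF-1 cKO. These groups overlapped, and the log2 fold change of 0.50 (SE 0.43, adjusted p = 0.472) was the only one above 0.

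Irf3 (ENSMUSG00000003184, chr7:44997648-45002848, plus strand) encodes the transcription factor that TBK1 and IKKε phosphorylate. It was at 207, 348 and 88.5 CPM in WT and 33.5, 47.4 and 42.8 CPM in TCF-1 cKO. The lowest WT library, replicate 3, was above the highest TCF-1 cKO library. The log2 fold change was -2.67 (SE 0.63, adjusted p = 0.0448). Exons of Irf3 share 88 bases with Bcl2l12 on the opposite strand, 2.56% of its exonic bases.

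These calls changed when single libraries were left out and when base composition was adjusted for. Without WT replicate 3, the library with the lowest level of 5 members, 7 members passed, all lower, with Ikbke at -2.95 (adjusted p = 0.0294), and 5299 of 18183 genes passed. Without any other single day 7 library (WT replicate 1 or 2, or TCF-1 cKO replicate 1, 2 or 3) no member passed, the smallest adjusted p of a member lay between 0.109 and 0.178, between 4 and 7 members had an unadjusted p below 0.05, and at most 2 genes of all tested passed. Across the 16026 genes the day 7 log2 fold change fell with the GC content of the transcripts (Spearman's rho of -0.559, taken over genes that are not independent of each other), and 7 members lie above the median GC content of 49.1%, from Trim25 at 50.5% to Irf3 at 56.9%, while Tbk1 lies below it at 46.2%. When each library's trend on GC content and length was subtracted, 823 genes and 1 member passed, Trim25 (-1.60, SE 0.42, adjusted p = 0.0962). Mavs was then at -2.04 (adjusted p = 0.104), Tmem173 at -1.75 (adjusted p = 0.119), Ikbke at -1.81 (adjusted p = 0.181), Nod1 at -0.88 (adjusted p = 0.308), Myd88 at -0.82 (adjusted p = 0.317) and Irf3 at -0.69 (adjusted p = 0.260), and Tbk1 turned to -0.29 (adjusted p = 0.717). In all 18 fits, alternatives and single-library fits included, those 7 members other than Tbk1 had log2 fold changes below 0.

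**Figure D2:**
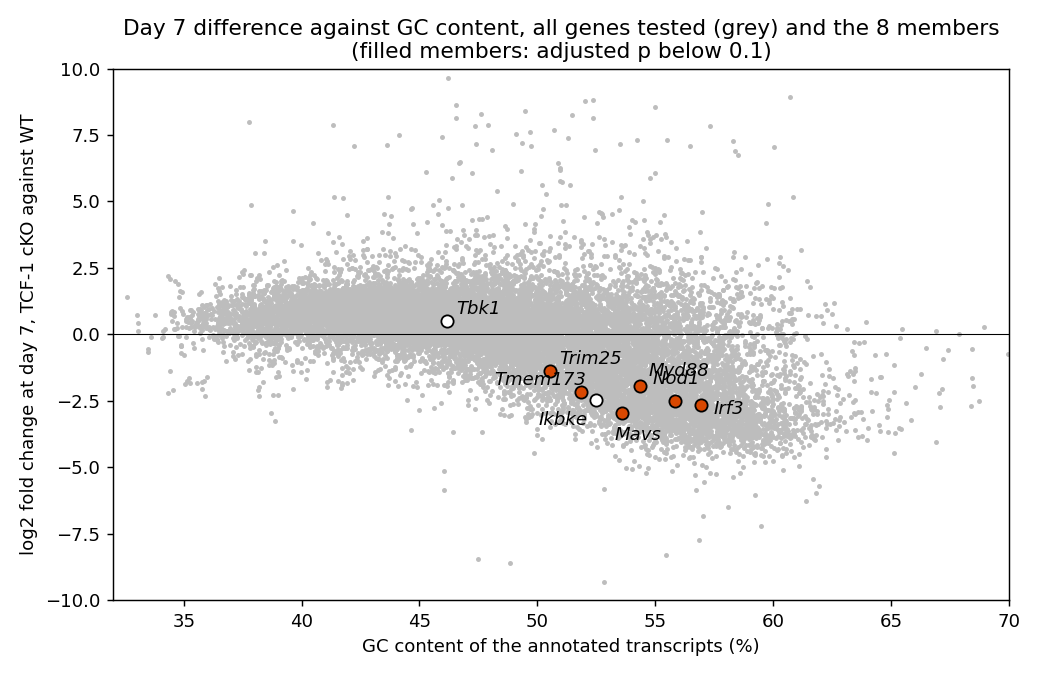
Day 7 log2 fold change of TCF-1 cKO against WT (y axis) against the GC content of a gene's annotated transcripts in percent (x axis), for all genes tested in grey (6 genes fall outside the axes) and the 8 members, filled where the adjusted p was below 0.1. The cloud falls to the right, and the 7 lower members lie at 50.5% GC or more.

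The libraries themselves differed in this respect. The Spearman's rho between GC content and a gene's deviation from its mean log2 level over the 12 libraries, across 16374 genes, was 0.351 and 0.484 in WT post-transplant replicates 1 and 2, -0.100 in WT replicate 3, and -0.297 to -0.437 in the TCF-1 cKO post-transplant libraries. WT replicate 3 thus lay between the other WT libraries and the TCF-1 cKO libraries on this measure, as it did in the level of Irf3, Mavs, Tmem173, Ikbke and Myd88. At day 7 the trend went with genotype, lower in all TCF-1 cKO libraries than in all WT libraries. The subtraction above therefore also removes any genotype difference that follows GC content, and the 2 cannot be told apart. The part of this trend in the members' differences was not tested.

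The second comparison asked whether the members already differed between the genotypes before transplant. None of the 8 passed an FDR of 0.1 in edgeR's quasi-likelihood test, where 0.0373% of the 18757 genes tested passed (0.0213% as lower and 0.016% as higher), and 4 members had an unadjusted p below 0.05 (17.7% of all genes). DESeq2 called 3 of them, Ikbke, Mavs and Tbk1, among 1451 genes called in all, and limma-voom called no member and 2 genes in all. The median log2 fold change was -0.85, against 0.05 over all genes, 7 members were below 0, and the groups did not overlap for 4 members that were lower and 1 that was higher (14.3% and 16.1% of all genes, 30.3% in all). The TCF-1 cKO libraries of this stage held the fewest counts of the study, and summed T cell markers were at 357 to 746 CPM in them and 1482 to 1626 CPM in WT; the part of cell composition in these differences was not tested.

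Of the 8 members Ikbke had the largest difference. It was at 79.1, 76.2 and 145 CPM in WT and at 11.4, 5.48 and 28.4 CPM in TCF-1 cKO, without overlap. The log2 fold change was -2.58 (SE 0.57, adjusted p = 0.179), close to the -2.46 found at day 7. Tbk1 went the other way, with 90.3, 116 and 88.0 CPM in WT and 232, 245 and 174 CPM in TCF-1 cKO, a log2 fold change of 1.396 (SE 0.42, adjusted p = 0.209). In gene counts the related kinases thus stood on opposite sides of WT in every library before transplant, with neither past the threshold. This contrast does not extend to the coding transcript of Tbk1, whose groups overlapped. The repeat transcript, which has no coding sequence, held 91.4% to 95.2% of the Tbk1 counts in TCF-1 cKO. With protein-coding transcripts alone, the log2 fold change of Tbk1 was -1.58, below 0 like that of Ikbke, and did not pass.

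Mavs was at 45.6, 48.5 and 72.4 CPM in WT and 18.8, 19.7 and 24.5 CPM in TCF-1 cKO pre-transplant (log2 fold change -1.18, SE 0.43, adjusted p = 0.229). Myd88 was at 99.2, 48.0 and 72.1 CPM in WT and 33.96, 14.9 and 43.9 CPM in TCF-1 cKO (-1.05, SE 0.48, adjusted p = 0.280). Tmem173 was at 146, 150.4 and 114 CPM against 63.8, 50.1 and 92.1 CPM (-0.80, SE 0.40, adjusted p = 0.304). These 3 adaptors were lower in TCF-1 cKO without overlap. For Irf3, Nod1 and Trim25 the groups overlapped because TCF-1 cKO replicate 3 was high: Irf3 was at 29.1, 27.1 and 99.7 CPM, Nod1 at 14.6, 22.5 and 109 CPM and Trim25 at 48.4, 39.3 and 123 CPM in TCF-1 cKO replicates 1 to 3. The WT ranges were 85.6 to 118 CPM for Irf3, 71.2 to 132 CPM for Nod1 and 88.7 to 126 CPM for Trim25. TCF-1 cKO replicate 3 was the deepest of its group and stood apart from replicates 1 and 2 also in Tcf7 (above) and in the Spearman's rho of levels with GC content, which was 0.288 against -0.260 and -0.318, with 0.0548 to 0.330 in WT. Without it, 7 members passed, 6 lower and Tbk1 higher, and 2739 of 21575 genes passed. Without any other single pre-transplant library no member passed and 2 to 4 members had an unadjusted p below 0.05.

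**Figure D3:**
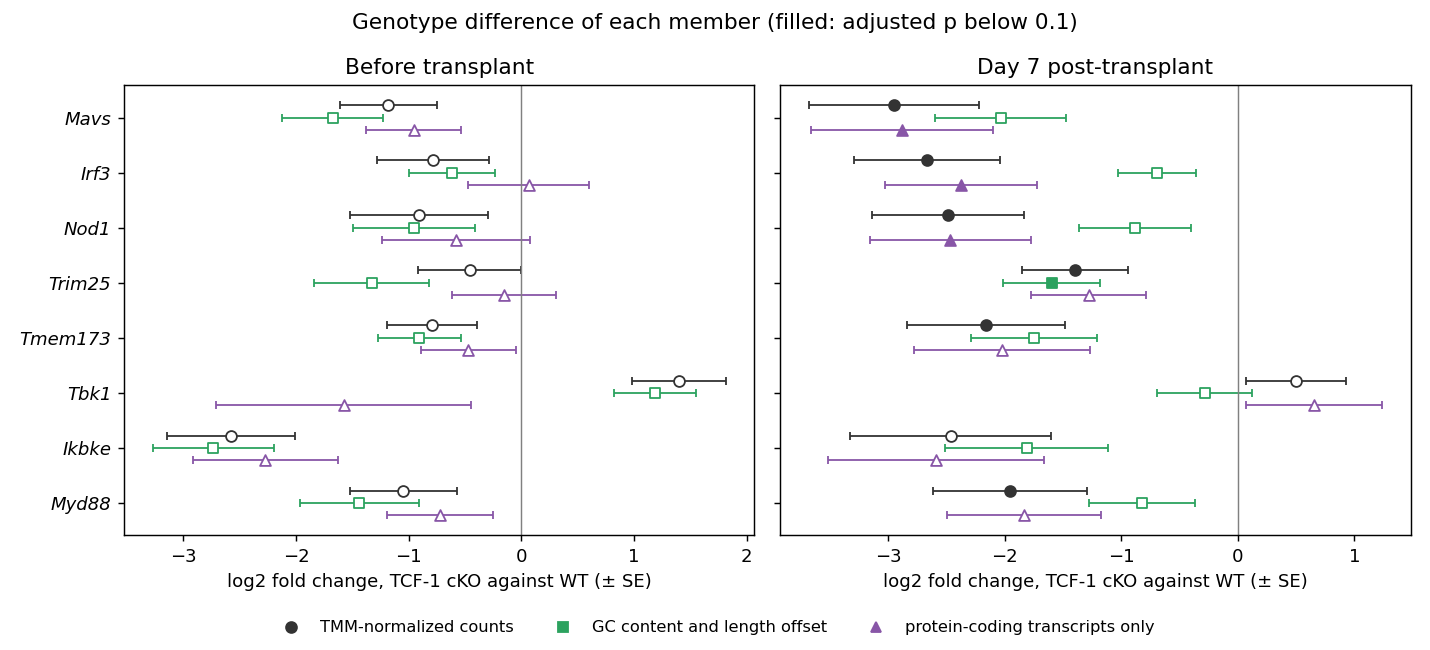
Log2 fold change of TCF-1 cKO against WT (x axis, bars are ± SE) for each member (y axis) before transplant and at day 7, from TMM-normalized counts, with the offset for GC content and length, and from protein-coding transcripts alone; filled symbols have an adjusted p below 0.1. Symbols of Mavs, Nod1, Trim25, Tmem173, Ikbke and Myd88 stay left of 0. The Irf3 symbol for protein-coding transcripts lies at 0.0625 before transplant. The Tbk1 symbol moves to the left of 0 for protein-coding transcripts before transplant and with the offset at day 7.

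The genotype difference was not shown to change from one stage to the other for any member. In the interaction of genotype and stage over all 12 libraries, edgeR's quasi-likelihood test called no member (0.00465% of 21526 genes were called), none had an unadjusted p below 0.05 (15.7% of all genes did), and DESeq2 and limma-voom also called none. The interaction log2 fold changes ran from -1.45 (SE 0.81) for Irf3 to 0.58 (SE 1.02) for Ikbke. Passing at day 7 and not before transplant does not by itself show a difference between the stages.

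Transcript-level values set Tbk1 apart. Before transplant, the repeat transcript was at 284, 586 and 225 TPM (transcripts per 1000000, scaled for length) in WT and at 2415, 2482 and 935 TPM in TCF-1 cKO. All TCF-1 cKO libraries were above all WT libraries (two-sided exact permutation p = 0.1, the smallest that 3 libraries against 3 allow). The coding transcript was at 21.7, 8.96 and 22.5 TPM in WT and at 0, 9.73 and 6.91 TPM in TCF-1 cKO, with overlap (exact permutation p = 0.2). The higher Tbk1 count of the TCF-1 cKO libraries was thus carried by the transcript with the repeat, which held 91.4% to 95.2% of the gene's counts there and 37.3% to 82.9% in WT. TCF-1 cKO replicate 1 was listed at 0 for the coding transcript (3024 bases) and at 6.30 TPM, 106 estimated counts, for a nonsense mediated decay transcript of nearly the same length (3005 bases), which was at 0.00065 and 0 TPM in replicates 2 and 3. The estimated split of reads between such transcripts can set this 0, so it is not read as absence. At day 7, the repeat transcript was at 36.8 to 84.2 TPM in WT and 69.6 to 131 TPM in TCF-1 cKO, and the coding transcript at 1.87 to 7.53 and 4.61 to 9.89 TPM, both with overlap.

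With counts of protein-coding transcripts alone, a setting chosen after seeing these values, the pre-transplant log2 fold change of Tbk1 was -1.58 (SE 1.13, adjusted p = 0.612) and the day 7 value 0.65 (SE 0.58, adjusted p = 0.474). Both this pre-transplant value and the stage value of the same setting rest in part on the listed 0. That setting left 3 members past the FDR at day 7, Mavs, Irf3 and Nod1, among 2270 genes in all.

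**Figure D4:**
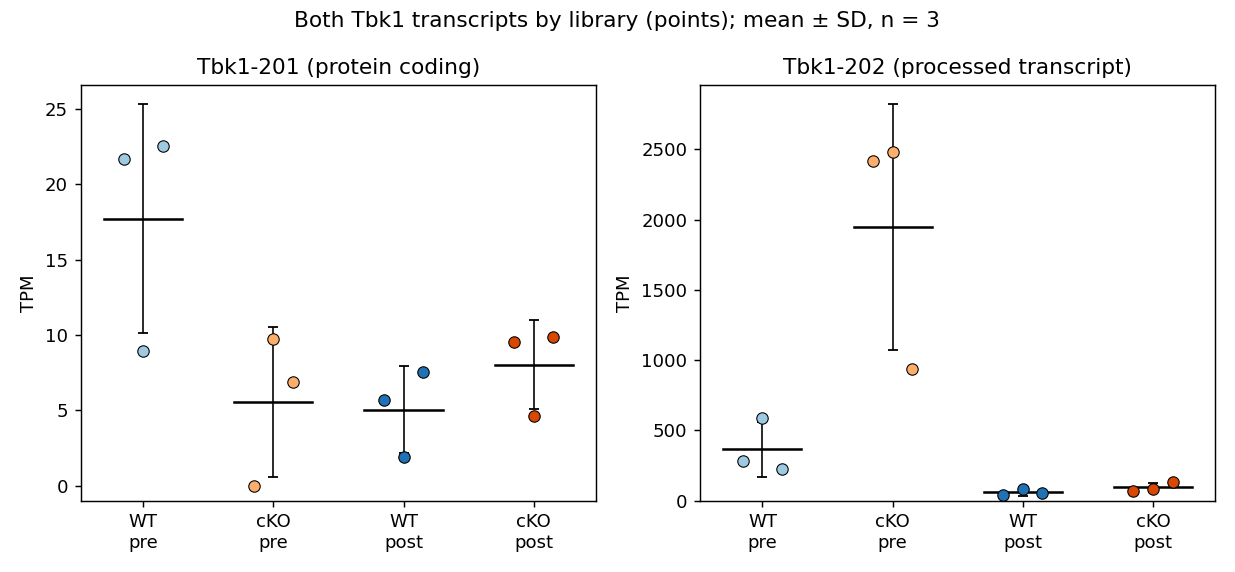
TPM (y axis, linear) of the protein-coding transcript of Tbk1 (left panel) and the processed, repeat transcript (right panel, on its own scale) in each library by group (x axis), with points for libraries and bars for the mean ± SD of 3 libraries. The repeat transcript reaches 2482 TPM in TCF-1 cKO pre-transplant, where the coding transcript is at 9.73 TPM or less.

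Other members also held counts in transcripts that are not protein coding. In Irf3, a retained-intron transcript of 1641 bases held 43.4% to 52.6% of the counts in WT and 29.5% to 36.3% in TCF-1 cKO pre-transplant, and 39.1% to 48.9% and 29.9% to 39.9% at day 7. At day 7 both it and the coding transcript of 1429 bases were lower in TCF-1 cKO without overlap, the first with means of 4.59 against 30.6 TPM and the other with 6.93 against 27.8 TPM (exact permutation p = 0.1 for each). Protein-coding transcripts held 46.7% to 89.3% of the Tmem173 counts over all libraries, 61.0% to 99.8% of those of Ikbke, and all those of Trim25.

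Across genes, levels were compared per length, as summed TPM. In WT pre-transplant the order of mean TPM was Tbk1 (387 ± 185, SD, n = 3), Irf3 (149 ± 25.1), Tmem173 (131 ± 38.0), Trim25 (63.9 ± 9.12), Myd88 (53.7 ± 17.7), Ikbke (48.7 ± 8.61), Nod1 (35.9 ± 8.78) and Mavs (27.7 ± 5.21). Only Tbk1 and Irf3, and Tmem173 and Trim25, were neighbours whose libraries did not overlap. In WT post-transplant Myd88 came first (93.0 ± 34.9 TPM), followed by Irf3 (78.9 ± 40.01), Tmem173 (67.1 ± 33.9) and Tbk1 (65.0 ± 22.4), which overlapped in turn, and then by a lower set from Nod1 (12.2 ± 5.60) to Trim25 (7.95 ± 1.94). In TCF-1 cKO post-transplant Tbk1 led with 105 ± 31.7 TPM, above Myd88 (28.7 ± 20.98) without overlap, and Mavs was last with 1.56 ± 0.717 TPM. The lead of Tbk1 rests on the 406-base transcript, since the protein-coding transcripts of Tbk1 summed to 18.7 ± 8.69 TPM in WT pre-transplant and 8.02 ± 2.96 TPM in TCF-1 cKO post-transplant.

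The stage comparisons asked how the members changed from the pre-transplant libraries to those of day 7. Of the 8 members, 2 passed in WT, Myd88 higher and Trim25 lower, where 20% of the 16790 genes tested passed (10.3% as lower and 9.7% as higher), and 4 passed in TCF-1 cKO, Myd88 higher and Mavs, Trim25 and Tbk1 lower, where 36.5% of 18535 genes passed (16.8% as lower and 19.7% as higher). In WT 2 members were lower and 1 higher without overlap (16.2% and 15.9% of all genes, 32.1% in all) and 3 had an unadjusted p below 0.05 (28.1%), and in TCF-1 cKO 3 were lower and 1 higher without overlap (23.8% and 23.1%, 46.9% in all) and 4 had an unadjusted p below 0.05 (40.1%). Summed marker levels differed between the stages too, that of B cells as given above. In WT the myeloid sum was 1780 to 3580 CPM pre-transplant and 722 to 1356 CPM at day 7. In TCF-1 cKO it was 993 to 1631 and 640 to 931 CPM. The T cell sum was higher at day 7, at 8510 to 14870 CPM in WT and 8449 to 9930 CPM in TCF-1 cKO. Pre-transplant it was 1482 to 1626 and 357 to 746 CPM. The part of these marker levels in the stage changes was not tested.

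In TMM-normalized CPM, Myd88 rose in both genotypes. In WT it went from 48.0 to 99.2 CPM pre-transplant to 195 to 502 CPM at day 7, a log2 fold change of 2.02 (SE 0.55, adjusted p = 0.0353), and in TCF-1 cKO from 14.9 to 43.9 CPM to 58.0 to 187 CPM, a log2 fold change of 1.78 (SE 0.57, adjusted p = 0.0425). Its groups did not overlap in either genotype. As summed TPM the stages overlapped in both genotypes, and the mean went from 53.7 to 93.0 in WT and from 29.9 to 28.7 in TCF-1 cKO. Trim25 fell in both, by 1.75 on the log2 scale in WT (SE 0.48, adjusted p = 0.0378), from 88.7 to 126 CPM down to 29.5 to 46.3 CPM, and by 1.99 in TCF-1 cKO (SE 0.52, adjusted p = 0.0192), from 39.3 to 123 CPM down to 11.5 to 23.6 CPM. The genotypes share no library in these comparisons.

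In TCF-1 cKO, Mavs fell by 1.26 on the log2 scale (SE 0.51, adjusted p = 0.0971) and Tbk1 by 1.25 (SE 0.37, adjusted p = 0.0332). In WT, Mavs was at 45.6 to 72.4 CPM before and 19.7 to 85.6 CPM after transplant (-0.27, SE 0.62, adjusted p = 0.815). Tbk1 in WT was lower at day 7 without overlap but did not pass (-1.11, SE 0.48, adjusted p = 0.157), and both falls of the Tbk1 gene count include that of the repeat transcript, from a mean of 365 to 59.3 TPM in WT and from 1944 to 94.6 TPM in TCF-1 cKO. With protein-coding transcripts alone the TCF-1 cKO value of Tbk1 turned to 2.24 (adjusted p = 0.187). For Irf3, Nod1, Tmem173 and Ikbke the stages overlapped in both genotypes, with log2 fold changes between -1.18 (SE 0.72, Nod1 in TCF-1 cKO) and 0.88 (SE 0.57, Irf3 in WT).

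Scaling mattered in the stage comparisons. With library totals in place of TMM factors the median of all genes moved from -0.30 to -1.25 in WT and from -0.29 to -1.89 in TCF-1 cKO, and 85.2% of called genes were lower in WT in place of 51.6%, and 86.5% in TCF-1 cKO in place of 45.97%. With DESeq2 size factors the share lower was 44.5% and 44.3%, and with the GC content and length offset 40.2% and 44.9%. With library totals Myd88 was at 0.99 (adjusted p = 0.162) in WT and 0.27 (adjusted p = 0.664) in TCF-1 cKO, still above the median of all genes, and Trim25 at -2.72 and -3.49, still below it. Without WT post-transplant replicate 3, 4 members and 4156 of 18719 genes passed in WT, with Irf3 (1.46, adjusted p = 0.0364) and Tmem173 (1.12, adjusted p = 0.0968) joining as higher. Without WT pre-transplant replicate 3 no member and 1579 of 18860 genes passed in edgeR's test, with 2 members at an unadjusted p below 0.05. Without WT pre-transplant replicate 1 or 2, or post-transplant replicate 1, 1 member passed in WT, with 1945, 2134 and 2043 genes in all. In TCF-1 cKO 1 member and 5287 genes passed without post-transplant replicate 2, and 2 members and 5691 genes without pre-transplant replicate 2.

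The promoters of 7 members, the 250 bases before the RefSeq start, were searched on both strands for CTTTGAT and CTTTGAA, the core words bound by TCF/LEF factors, for the core of interferon response elements (GAAA, any 2 bases, GAAA) and for an NF-kB consensus word. None held a TCF/LEF or NF-kB word, where 3.21% and 4.46% of 32851 promoters held the respective TCF/LEF words and 0.14% the NF-kB word. Among the members searched, which leave out Tmem173, only Myd88 held an interferon response element word, as did 2.98% of all promoters. It is shown for that member, and its window holds 23 bases of exon 1 of a coding Myd88 transcript (GRCm38.p6, chr9:119340019-119340268, minus strand, 5′ to 3′), with the word, which starts 40 bases before the start, in capitals.
Myd88: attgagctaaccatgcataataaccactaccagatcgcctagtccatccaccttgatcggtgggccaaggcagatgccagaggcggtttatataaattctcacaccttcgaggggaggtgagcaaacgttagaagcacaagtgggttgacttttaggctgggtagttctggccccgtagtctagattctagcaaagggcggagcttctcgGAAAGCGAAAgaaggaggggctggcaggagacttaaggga
A word in a window is a description and not a site, and its absence says only that these letters are not in these windows.

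Likeness across the 12 libraries, which fall in 4 groups, was described by Pearson's r of log2 CPM. Mavs, Irf3, Nod1, Tmem173 and Ikbke had pairwise r of 0.69 to 0.93, highest for Irf3 and Tmem173, while Tbk1 had r of -0.94 with Myd88, -0.67 with Irf3 and -0.66 with Tmem173. The r values of Tbk1 rest on its gene count, of which the repeat transcript held 29.1% to 95.2% by library. Its coding transcript was not correlated apart. Trim25 was close to Nod1 (0.73) and not to Myd88 (-0.25). Among 9154 genes with a mean of at least 10 CPM, those most like each member were Ip6k1 and Rasa3 for Mavs (r 0.97 each), Rpl8 and Coq8b for Irf3 (0.99 and 0.98), Runx3 and Il10ra for Nod1 (0.95 and 0.94), Pou2f2 and Ncoa3 for Trim25 (0.98 and 0.97), Traf1 and Rps6kb2 for Tmem173 (0.98 and 0.97), Cul4a and Usp53 for Tbk1 (0.99 and 0.98), Pabpn1 and Sp110 for Ikbke (0.94 each), and Zfp593 and Emc8 for Myd88 (0.98 each). The 2 genes most like Tbk1 have GC contents of 48.9% and 41.6%, and those most like the other members 49.0% to 59.6%. No transcript of Cul4a or Usp53 shares a 31-base word with the repeat transcript, as transcripts of 10.5% of the 9154 genes do.

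To see the members among the rest of the pathway, 130 other genes of innate sensing were grouped in 8 lists by role. At day 7, 116 were tested and 36 passed (31%, against 17.9% of all genes), 32 lower and 4 higher in TCF-1 cKO, with a median log2 fold change of -0.37. Rela, Traf2, Tradd and Chuk of these lists were named in the paper from these libraries too.

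The transcription factors at the end of the pathway moved most as a list, with 7 of 11 lower and none higher, and a median of -2.89. They were Irf5, Irf7, Irf8 and Irf9 of the interferon regulatory factors and Rela, Relb and Nfkb2 of the NF-kB family, with log2 fold changes from -4.28 (SE 1.14, adjusted p = 0.052) for Rela to -2.03 (SE 0.56, adjusted p = 0.0561) for Irf9. The summed level of 6 plasmacytoid dendritic cell markers, cells in which Irf7 and Irf8 are highly expressed, was also lower in TCF-1 cKO at day 7 without overlap (66.5 to 84.5 CPM, against 101 to 188 CPM in WT). That drop rests largely on Bst2, also on the list of interferon-induced targets, which itself passed as lower (116 ± 52.4 CPM in WT and 35.3 ± 16.0 CPM in TCF-1 cKO, SD, n = 3). The other markers were not summed apart, and 2 genes of the marker list were under 1 CPM in all 3 libraries of each group. The part of such cells in these differences was not tested. Of 31 regulators of the adaptors, 10 were lower and none higher. Sharpin, a subunit of the linear ubiquitin ligase, was at 134, 212 and 40.9 CPM in WT and 15.8, 7.92 and 8.47 CPM in TCF-1 cKO (-3.92, SE 0.74, adjusted p = 0.0448). The other subunits of that ligase, Rnf31 and Rbck1, were among the 10.

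Among the receptors at the top of the pathway, calls were few or went both ways. Of 16 RNA and DNA sensors 2 were lower, Ddx41 and Dhx58 (12.5%, near the 15.4% of all genes called lower), and the list's median was 0.55. Of 16 Toll-like receptors and their helpers only 8 were tested, with 2 lower and 2 higher. Tlr1, a receptor for bacterial lipopeptide, rose from 12.8, 16.7 and 39.0 CPM in WT to 84.5, 82.0 and 120.2 CPM in TCF-1 cKO (1.89, SE 0.50, adjusted p = 0.052), and Ly96, the MD-2 partner of TLR4, from 2.17, 1.404 and 2.22 CPM to 9.18, 6.43 and 13.8 CPM (2.07, SE 0.56, adjusted p = 0.054). Tollip, a negative regulator of Toll-like receptor signaling, fell from 89.3, 124 and 36.3 CPM to 10.8, 6.04 and 9.76 CPM (-3.56, SE 0.64, adjusted p = 0.0448). Of 10 NOD-like receptor genes tested, 1 passed, Nlrx1, as lower (10%, against 17.9% of all genes).

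Of 14 adaptors tested beside the members, Ticam1, Tradd and Traf2 were lower and Ticam2, the bridging adaptor of TLR4, was higher at 1.54, 3.20 and 2.56 CPM in WT and 8.39, 12.2 and 7.79 CPM in TCF-1 cKO (1.75, SE 0.56, adjusted p = 0.083). Of 14 kinases and cofactors, 3 were lower and 1 higher (28.6% passed, as among the adaptors, against 17.9% of all genes). They included a pair of partners of the kinase TAK1 that went opposite ways, Tab1 from 85.9, 163 and 26.3 CPM in WT to 10.5, 4.08 and 11.6 CPM in TCF-1 cKO (-3.74, SE 0.80, adjusted p = 0.0448), and Tab3 from 3.13, 2.81 and 6.24 CPM to 15.7, 8.07 and 19.9 CPM (1.62, SE 0.54, adjusted p = 0.0959). Of 15 genes listed as interferons and interferon-induced targets, 12 were tested and 4 were lower, all of these induced targets. Before transplant no interferon gene was among those tested. The chemokine Ccl5 fell from 1877, 3183 and 915 CPM in WT to 476, 276 and 216 CPM in TCF-1 cKO (-2.94, SE 0.59, adjusted p = 0.0448), Bst2 and Oas3 and Oasl1 fell as well, and the median of the list was 0.37.

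**Figure D5:**
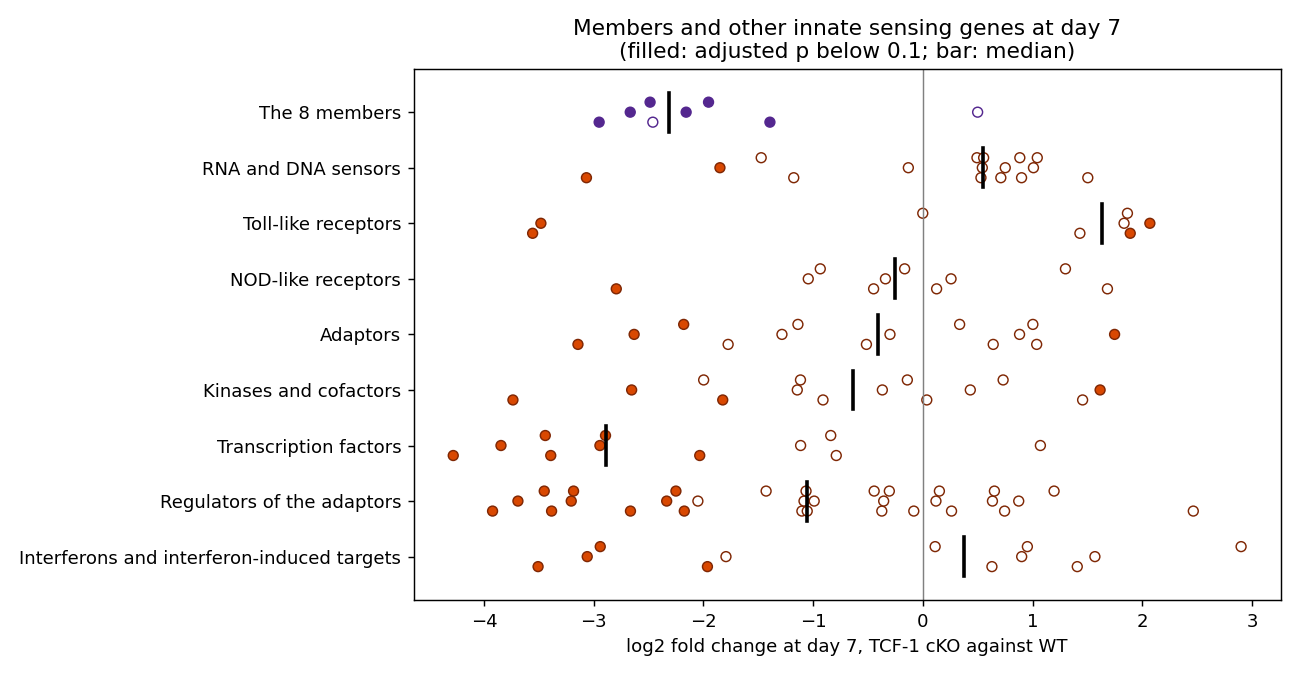
Day 7 log2 fold change of TCF-1 cKO against WT (x axis) for the 8 members and for the tested genes of 8 other innate sensing lists (y axis), filled where the adjusted p was below 0.1, with a bar at the median of each row. The members have a median of -2.31, the transcription factors -2.89 and the RNA and DNA sensors 0.55.

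The list counts shared the limits of the members' calls. With the offset for GC content and length, 7 of the list genes passed, all lower. Without WT replicate 3 there were 48, 41 of them lower, and without any other single day 7 library there were none.

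Before transplant none of 125 tested list genes passed in edgeR's quasi-likelihood test, 17 had an unadjusted p below 0.05 (17.7% of all genes did), 13 of them with a log2 fold change below 0, DESeq2 called 3 and limma-voom none. From pre-transplant to day 7, 33 of 123 genes passed in WT (26.8%, against 20% of all genes), 27 lower and 6 higher, and 49 of 124 in TCF-1 cKO (39.5%, near the 36.5% of all genes), 27 lower and 22 higher. The Toll-like receptor list, whose genes are known mainly from B and myeloid cells, had 9 of 13 lower and none higher in WT, among them Tlr7 from 39.9, 5.29 and 28.9 CPM to 0.626, 0.0780 and 0.171 CPM (-6.47, SE 1.15, adjusted p = 0.00584), and Unc93b1, the chaperone of the nucleic acid receptors, from 766, 754 and 685 CPM to 63.1, 136 and 16.7 CPM (-3.59, SE 0.72, adjusted p = 0.00996). In TCF-1 cKO 6 of 13 of that list were lower, Unc93b1 again from 192, 183 and 691 CPM to 11.5, 2.43 and 10.8 CPM (-5.43, SE 0.80, adjusted p = 0.00106).

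Against this, Pycard, the inflammasome adaptor ASC, rose in both genotypes. It went from 94.8, 108 and 116 CPM to 1296, 1962 and 2082 CPM in WT (3.79, SE 0.45, adjusted p = 0.00115) and from 44.0, 31.8 and 75.4 CPM to 1854, 1722 and 1358 CPM in TCF-1 cKO (5.02, SE 0.46, adjusted p = 0.000138). Zbp1, a sensor of left-handed nucleic acid that triggers necroptosis, passed as higher in both, from 26.9, 17.5 and 25.3 CPM to 511, 420.4 and 499 CPM in TCF-1 cKO (4.35, SE 0.38, adjusted p = 0.000119). In TCF-1 cKO 10 of 16 RNA and DNA sensors passed, 7 higher and 3 lower (62.5%, against 36.5% of all genes). In WT 1 was higher, Zbp1, and 1 lower, Ddx58, which encodes RIG-I (12.5%, against 20% of all genes). Whether the genotypes differ in these changes was not tested for the list. Sike1, an inhibitor of the member kinases TBK1 and IKKε, rose in TCF-1 cKO from 32.04, 31.2 and 40.2 CPM to 267, 234 and 233 CPM (2.81, SE 0.34, adjusted p = 0.000393).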

How the data were processed

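Estimated counts and TPM of 117497 transcripts were made by the authors with Kallisto 0.46.2 (per the labels, which also name mm9) and deposited for each library. The transcript release is not given in the sources used here. RNA was amplified with a SMARTseq HT kit and tagmented with Nextera XT, which does not mark strand, and reads carry no molecular identifiers, so the floor of 3 counts covers counting error only.

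Transcripts were joined by identifier to GENCODE M21 (GRCm38). A gene was found for 116374 of them, in 35855 genes. Estimated counts were summed per gene and rounded. Libraries were grouped by their titles. Each comparison was fitted on its own 6 libraries with edgeR 4.0.16 (TMM, filterByExpr, quasi-likelihood test, Benjamini-Hochberg adjustment over all genes tested, FDR of 0.1 as in the paper), and the interaction on all 12. SE is the log2 fold change divided by the root of F. TPM was summed per gene to compare levels. Replicates are separate libraries of a group and p-values measure the spread between them.

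The members, the gene lists and the tests were chosen with earlier results of these data known. Genes named were the members, label checks, up to 4 list genes per direction with the smallest p among those past the FDR without overlap, and the 2 genes most like each member. List genes named beyond these were chosen after their values were seen. Of 132 list entries 130 genes were matched, with Trim4 not found and Riplet a second name of Rnf135. Promoters and starts are from RefSeq (GRCm38.p6).

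Alternatives were DESeq2 1.42.0, limma-voom (limma 3.58.1), DESeq2 size factors, library totals, no filter, counts scaled from TPM, a replicate block, a GC content and length offset (loess, span 0.4, degree 2), both together, 1 fit over all 12 libraries, leaving out each library, and protein-coding transcripts only, which was added after seeing the data. The edgeR fit of the genotype comparisons, with and without the offset, was run on simulated data with known changes. The stage comparisons, the interaction and the other methods were not simulated. The software was R 4.3.3 and Python 3.11.15, with SciPy 1.17.1 for the exact tests and pandas 2.3.3 for the tables.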

Additional observations from a re-analysis of the deposited data

How the results depend on the processing

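At day 7 the log2 fold changes of the 7 members other than Tbk1 were below 0 in all 18 fits. Of 432 member log2 fold changes under other settings, 364 kept direction and side of the threshold, 33 lost the call, 16 gained one and 19 changed sign, and of 288 with 1 library left out these numbers were 219, 44, 10 and 15. The causes were not tested. The shallow TCF-1 cKO pre-transplant libraries limit what can be seen below 0.667 CPM.

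Before transplant 3 members and 3 list genes passed with DESeq2, and 1 member and 4 list genes with no filter. At day 7, 3 members passed with library totals, 3 with protein-coding transcripts only, and 1 member and 7 list genes with the offset for GC content and length. Over all genes the day 7 count was 2868. It was 4524 with DESeq2, 2221 with library totals, 2270 with protein-coding transcripts only and 823 with the offset. Before transplant it was 7, against 1451 with DESeq2, 619 with no filter and 2 with limma-voom. From pre-transplant to day 7, library totals gave 4 members, 58 list genes and 4853 genes in all in WT. In TCF-1 cKO they gave 85 list genes and 12268 genes in all. The offset gave 1 member and 3894 genes in all in WT.

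Same-numbered libraries correlated at 0.117, 0.0628 and 0.154 at day 7, each the highest for its library, a hint from the data and not the design, and not all above 0.1 in any comparison, so the numbers were not taken as pairs. With a replicate block 5 members, 22 list genes and 2038 genes in all passed at day 7, and 0 members and 0 genes before transplant. In the stage comparisons 2 members and 3097 genes in all passed in WT, and 2 members and 5478 genes in TCF-1 cKO. With the replicate block and the offset together 1 member, 3 list genes and 148 genes in all passed before transplant. At day 7 this fit gave 0 members, 0 list genes and 2 genes in all. In the stage comparisons 1 member and 3344 genes in all passed in WT, and 2 members and 6048 genes in TCF-1 cKO.

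Signs changed as follows. Before transplant, protein-coding transcripts only gave 0.0625 for Irf3 and -1.58 for Tbk1. At day 7, Tbk1 was at -0.29 with the offset and -0.23 with block and offset. In the WT stage comparison Mavs was at 0.0470 with the offset, and Irf3 at -0.22 and Tmem173 at -0.55 with library totals. In that of TCF-1 cKO, Irf3 was at 0.0484 with the offset and 0.0567 with block and offset, Tbk1 at 2.24 with protein-coding transcripts only, and Ikbke at -0.0866 with limma-voom, -1.31 with library totals, -0.11 with counts scaled from TPM, -0.0407 with block and offset and -0.15 with protein-coding transcripts only. In the interaction, protein-coding transcripts only gave 2.49 for Tbk1 and -0.0698 for Ikbke, and Myd88 was at 0.26 with the offset and 0.26 with block and offset.

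With each library left out in turn, 0 to 7 members and 0 to 22 list genes passed before transplant, and 0 to 7 and 0 to 48 at day 7. In the stage comparisons the counts were 0 to 4 and 14 to 43 in WT, and 1 to 3 and 34 to 51 in TCF-1 cKO. Over all genes the counts were 0 to 2739 before transplant and 0 to 5299 at day 7. They were 1579 to 4156 in the WT and 5242 to 7114 in the TCF-1 cKO stage comparison. In the WT stage comparison the log2 fold change ran from -0.55 to 0.34 for Mavs and from -0.86 to 0.30 for Nod1. In that of TCF-1 cKO it ran from -0.53 to 0.68 for Irf3, -1.55 to 0.29 for Nod1, -0.63 to 0.30 for Tmem173 and -0.16 to 1.11 for Ikbke. In the interaction it ran from -1.85 to 0.12 for Nod1, -1.03 to 0.0630 for Trim25 and -0.0722 to 1.30 for Ikbke.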
